A study of Mus musculus with 4 samples.

Results

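TFIID is the general transcription factor that recognises core promoters for RNA polymerase II, and several of its subunits exist in mammals as pairs or small families of paralogous genes. The genes described here are 10 of that kind with their partner: Taf4a and Taf4b, their histone-fold partner Taf12, Tbp with its paralogues Tbpl1 and Tbpl2, Taf7 and Taf7l, and Taf9 and Taf9b. They were chosen by gene name in a table of 24637 genes. Of the 10 genes, 9 were found, in 10 rows, because 2 rows carry the name Taf9. Tbpl2 has no row and was not analysed here.

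The libraries hold polyA RNA of mouse embryonic stem cell (ESC) lines taken through cardiac differentiation, 5 days as embryoid bodies and 9 further days after transfer to gelatin-coated plates. The samples fall into 2 groups of 2 libraries each, WT (Taf4+/+) and Taf4a-/-, the latter from lines homozygous for a null allele that lacks exons 11 and 12 of Taf4a. All lines were derived from blastocysts of heterozygous crosses and kept on fibroblast feeders with leukaemia inhibitory factor before differentiation, so the feeders and the culture history are common to both groups. Per the study's methods the 2 replicates of each genotype come from independent ESC lines, so the spread within a group includes that between lines, and each line is represented by 1 library.

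Between 21732746 and 27733034 reads per library were counted on genes, and the unit throughout is the normalized count, that is reads divided by a size factor for each library. The labelled cell type, cardiac cells, was met in part. All 12 cardiomyocyte markers were detected, with a summed level of 30656 and 32253 normalized counts in the WT libraries, and all 12 were lower in the libraries labelled Taf4a-/-, where they summed to 3129 and 3422. The most abundant of them by WT mean were Actc1, Myh6 and Myh7, which encode sarcomeric actin and myosins. In bulk RNA such as this, fewer cells of a type cannot be told apart from less RNA per cell. The counts of Taf4a cover the whole gene and so do not check the genotype, and the second group is called by its label, the libraries labelled Taf4a-/-.

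TBP, the subunit that binds the TATA element, is joined in TFIID by TBP-associated factors (TAFs), many of which pair through histone folds: TAF4 or TAF4B with TAF12, TAF6 with TAF9, TAF11 with TAF13. Several of the paralogues are known from the germ line: TAF4B from the ovary and testis, TAF7L and TBPL1 (also called TRF2 or TLF) from the testis, and TBPL2 (TRF3) from the oocyte. TAF9, TAF10 and TAF12 also serve in SAGA, a histone acetyltransferase complex, and TBP also works in the factors for RNA polymerases I and III.

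The sequences of exons 11 and 12, which the study names as deleted in the null allele, are shown because they bear on what the label means at the level of RNA. Taf4a (ENSMUSG00000039117) lies at chr2:179646851-179711351 of NCBIM37 (mm9), on the minus strand. Exons were numbered along a coding transcript of 15 exons, 1 of 5 annotated, and whether the study numbered them likewise was not checked. The exons are printed 5′ to 3′ on the coding strand, in capitals, with 10 intronic bases in lower case on each side that hold the splice sites.
Taf4a exon 11, chr2:179658684-179658814: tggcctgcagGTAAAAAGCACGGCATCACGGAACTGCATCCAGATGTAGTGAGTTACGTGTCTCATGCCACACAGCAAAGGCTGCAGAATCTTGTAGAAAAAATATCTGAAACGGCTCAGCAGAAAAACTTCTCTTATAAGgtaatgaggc
Taf4a exon 12, chr2:179657659-179657784: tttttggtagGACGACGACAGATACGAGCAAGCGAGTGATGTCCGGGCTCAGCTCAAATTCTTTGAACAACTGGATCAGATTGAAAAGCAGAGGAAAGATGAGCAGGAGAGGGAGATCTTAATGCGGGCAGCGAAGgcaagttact
Both exons are coding along their whole length. Together they make up 257 nt, which is 5.55% of the 4633 nt of Taf4a exon sequence over which reads were counted. A count over the whole gene therefore does not report whether these exons are present, and counts per exon were not used here.

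Taf4a encodes TAF4, a scaffold of the TFIID core. It had 889 and 678 normalized counts in WT replicate 1 and replicate 2, against 1722 and 1799 in the libraries labelled Taf4a-/-, replicate 1 first. Both libraries labelled Taf4a-/- were thus above both WT libraries, by a gap larger than that between the WT libraries. The log2 fold change was 1.18 ± 0.16 (SE, 95% interval 0.79 to 1.57), a 2.26-fold higher level, with an adjusted p of 0.00569 (limma, Benjamini-Hochberg over 16926 genes). Gene-level Taf4a RNA was therefore higher in these libraries, a count that does not report on the 2 deleted exons. Its exons overlap those of the plus-strand gene 4921531C22Rik over 62 nt, 1.34% of its exon sequence, and the library kit did not mark strand. 4921531C22Rik had 46.5 and 42.6 normalized counts in WT, against 272 and 387 in the libraries labelled Taf4a-/-, and its part in the Taf4a count was not tested.

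Taf4b (ENSMUSG00000054321, chromosome 18, 14941754 to 15058868, plus strand) encodes the paralogue that takes the place of TAF4 in TFIID. It had 263 and 162 normalized counts in WT replicate 1 and replicate 2, against 534 in each library labelled Taf4a-/-. The WT libraries differed 1.62-fold from each other, and both were below the other group. The log2 fold change was 1.37 ± 0.26 (SE, 95% interval 0.74 to 1.99) with an adjusted p of 0.0143 by limma, the largest fold change among the 10 rows in the main fit. Without WT replicate 2 it was 1.02, below that of Taf12 at 1.26 and that of Taf7l at 1.09. The rise lay between 1.02 and 1.71 on the log2 scale over 14 other ways of processing, with an adjusted p between 0.00975 and 0.04998. Its highest p came close to the threshold of 0.05.

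Taf12 (ENSMUSG00000028899, chr4:131830290-131851681, plus strand) encodes the histone-fold partner of both TAF4 proteins and of the SAGA core. It had 425 and 470 normalized counts in WT, against 1040 and 1006 in the libraries labelled Taf4a-/-. The groups were well separated, with each library of the higher pair at more than 2 times the level of each library of the lower. Its log2 fold change was 1.19 ± 0.14 (SE, 95% interval 0.86 to 1.53), with an adjusted p of 0.00373 by limma. In contrast to Taf4a and Taf4b, it was WT replicate 2 and not WT replicate 1 that had the higher count of the WT pair.

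Tbp (ENSMUSG00000014767, chr17:15636852-15665343, plus strand) encodes the promoter-binding subunit of TFIID. It had 957 and 1038 normalized counts in WT, against 1329 and 1353 in the libraries labelled Taf4a-/-, so the groups did not overlap. For Tbp the log2 fold change was 0.43 ± 0.12 (SE, 95% interval 0.13 to 0.72), a 1.34-fold higher level, with an adjusted p of 0.0454 by limma. This call rests on the threshold: the adjusted p was 0.0562 without WT replicate 1, 0.0564 without WT replicate 2, 0.244 when replicate 1 of the libraries labelled Taf4a-/- was left out and 0.269 when replicate 2 was. It was also lost with the replicate number as a block (adjusted p of 0.0793). Exons of Tbp overlap those of Pdcd2 on the other strand over 2582 nt, 19.3% of the Tbp exon sequence, and Pdcd2 was not analysed here.

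Tbpl1 (ENSMUSG00000071359, chr10:22423685-22451744, minus strand) encodes a TBP-like protein that binds TFIIA but not the TATA element. It had 1440 and 1350 normalized counts in WT, against 1658 and 1747 in the libraries labelled Taf4a-/-. The groups did not overlap, and the log2 fold change was 0.29 ± 0.12 (SE) with an adjusted p of 0.115 by limma, so no difference was called. Its exons overlap 407 nt of Slc2a12 on the plus strand, 12.4% of its own exon sequence. Slc2a12 had 93.8 and 89.4 normalized counts in WT, against 29.4 and 33.2 in the libraries labelled Taf4a-/-.

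Taf7 (ENSMUSG00000051316, chromosome 18, 37800556 to 37803858, minus strand) encodes the subunit that binds TAF1 and restrains its activity. It had 1187 and 1469 normalized counts in WT, against 1384 and 1449 in the libraries labelled Taf4a-/-. The WT libraries lay on either side of the others, and the log2 fold change was 0.10 ± 0.14 (SE, 95% interval -0.25 to 0.45; adjusted p of 0.628 by limma). Taf7l (ENSMUSG00000009596, chrX:130994657-131011029, minus strand), its germ cell paralogue, had 17.5 and 30.1 normalized counts in WT, against 33.3 and 44.2 in the libraries labelled Taf4a-/-. These are 20, 29, 34 and 40 reads in the same order, above the 3 reads taken as a floor, which correspond to 2.63 to 3.32 normalized counts. The libraries labelled Taf4a-/- were above the WT libraries, replicate 1 by only a few counts. The log2 fold change was 0.71 ± 0.43 (SE, 95% interval -0.33 to 1.76; adjusted p of 0.252 by limma), an interval that includes 0, so no difference was called.

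Taf9 (ENSMUSG00000052293, chr13:101421298-101426014, plus strand) encodes the histone-fold partner of TAF6. It had 1075 and 1024 normalized counts in WT, against 1083 and 1281 in the libraries labelled Taf4a-/-. Replicate 1 of the latter exceeded the higher WT library by a few counts only, and the log2 fold change was 0.17 ± 0.14 (SE; adjusted p of 0.396 by limma). Of the 1209 different 32-base words in the Taf9 exons, 790 (65.3%) recur elsewhere in the genome, against at most 6.60% for each of the other 9 member rows. How reads from such repeats were assigned is not given in the sources used here, so the Taf9 count is uncertain. Taf9b (ENSMUSG00000047242, chrX:103402222-103416497, minus strand), whose protein can replace TAF9, had 154 and 219 normalized counts in WT, against 195 and 258 in the libraries labelled Taf4a-/-. The groups overlapped, and the log2 fold change was 0.28 ± 0.27 (SE; adjusted p of 0.455 by limma).

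The second row named Taf9 (ENSMUSG00000078941, chr13:101421298-101436368, plus strand) has the same start and shares 196 nt of exon and 0 nt of coding sequence with the first. Its span of 15071 bases is close to the 15073 bases that RefSeq (GRCm38.p6) gives for Ak6, the adenylate kinase gene that begins at the same position as Taf9 there. With that span and no Taf9 coding sequence, the row was kept by its name only and is not read as Taf9 here. It had 344 and 392 normalized counts in WT, against 294 and 338 in the libraries labelled Taf4a-/-. It was the 1 row of the 10 in which both libraries labelled Taf4a-/- lay below both WT libraries, with a log2 fold change of -0.22 ± 0.18 (SE; adjusted p of 0.395 by limma).

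**Figure D1:**
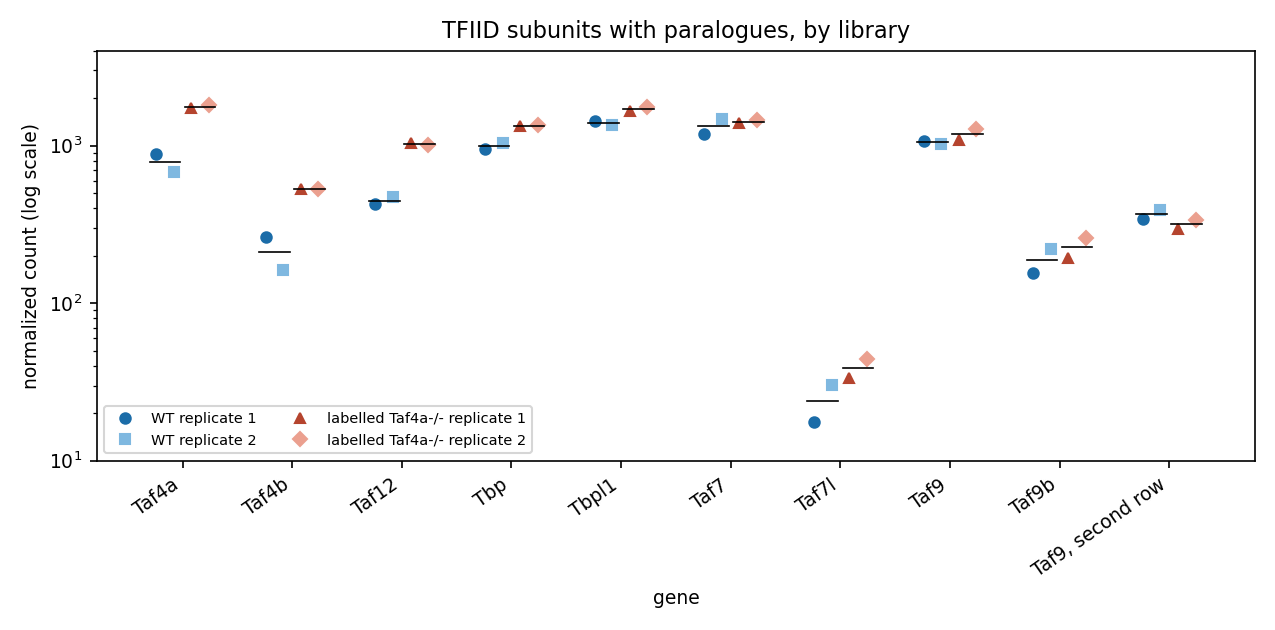
Normalized counts (log axis) of each gene in the 4 libraries, with a black line at each group mean. Taf4a, Taf4b and Taf12 show a wide gap between the groups (Taf12: 425 and 470 against 1040 and 1006), whereas the points of Taf7 and Taf9b are interleaved.

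Of the 10 rows, all of which passed the filter of a mean of 10 normalized counts, 4 were called higher in the libraries labelled Taf4a-/- and 0 were called lower, and 0 were lower at an unadjusted p of 0.05 either. The count was 3 when any 1 library was left out, since Tbp then lost its call. Over the 16926 genes tested, 11.3% were called higher and 17.3% lower, 28.6% in either direction. These shares move with the processing: the 1906 genes called higher and 2928 called lower became 2676 and 2448 under quantile normalization. The genes called higher numbered 2476 without WT replicate 1, 745 without WT replicate 2, and 625 and 624 without replicate 1 and replicate 2 of the libraries labelled Taf4a-/-. In the same order the genes called lower numbered 3038, 1222, 1988 and 1921. With no variance trend 856 genes were called higher and 1741 lower. Both libraries labelled Taf4a-/- were above both WT libraries in 7 of the 10 rows, against 34.5% of all genes. They were below them in 1 row, the second row named Taf9, against 36.6% of all genes. The median log2 fold change was 0.36 over the 10 rows, which ranged from -0.22 (the second row named Taf9) to 1.37, and -0.01 over all genes. Quantile normalization moved the median of all genes to 0.11, and that of the 10 rows to 0.54.

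**Figure D2:**
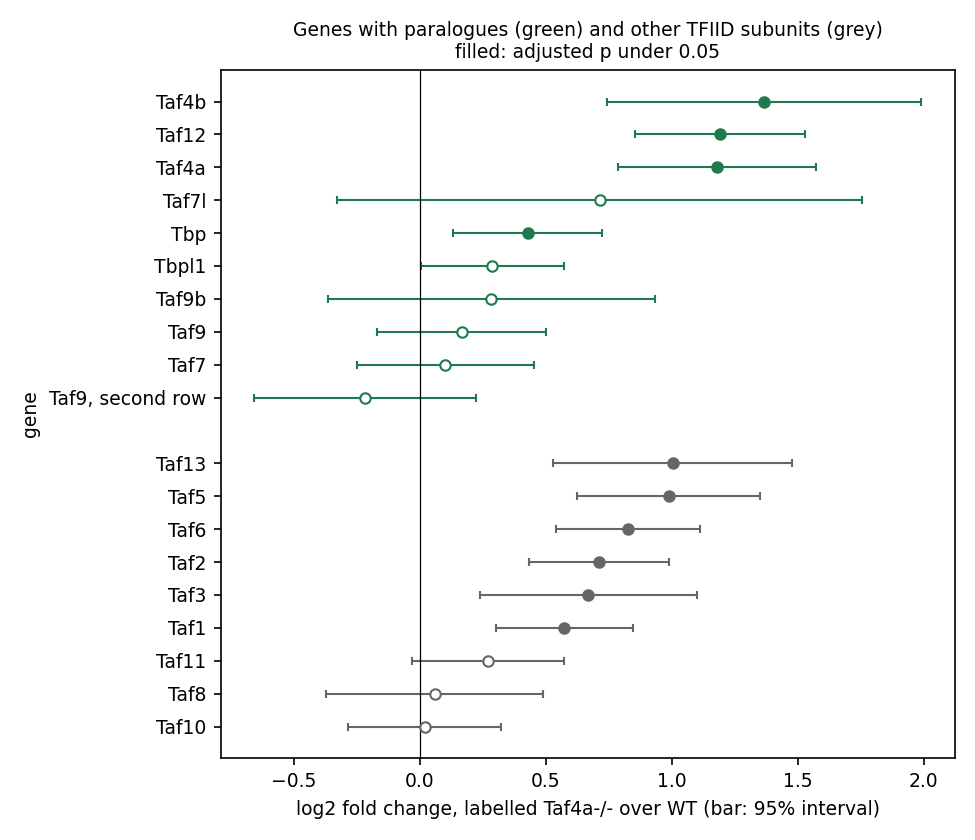
Log2 fold change of the libraries labelled Taf4a-/- over WT with its 95% interval (limma), for the genes with paralogues in green and the 9 other TFIID subunits in grey; filled points passed an adjusted p of 0.05. Taf4b, Taf12 and Taf4a lie farthest to the right, and the second row named Taf9 is alone to the left of 0.

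The within-pair make-up was compared as the share of the second paralogue in counts per kilobase of exon, a scale on which the genes of a pair can be set side by side. Taf4b made up 21.0% and 17.7% of Taf4a plus Taf4b in WT replicate 1 and replicate 2, against 21.8% and 21.1% in the libraries labelled Taf4a-/-. WT replicate 1 was within a fraction of a point of the library labelled Taf4a-/- replicate 2, and the share differed more between the WT libraries than between WT replicate 1 and either library of the other group. Taf4a was the more abundant of the pair in each library, by 3.76 and 4.66 times in WT, against 3.59 and 3.75 times in the libraries labelled Taf4a-/-. The summed level of the pair was 243 and 178 normalized counts per kilobase in WT, against 475 and 492 in the libraries labelled Taf4a-/-. Over the level of Taf12 this sum was 2.31 and 1.53 in WT, against 1.85 and 1.97 in the libraries labelled Taf4a-/-, which lay between the WT values. The size of this ratio depends on the length used: per kilobase of coding sequence it was 0.58 and 0.38 in WT, against 0.47 and 0.50 in the libraries labelled Taf4a-/-, below 1 but again between the WT values.

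Tbpl1 made up 86.0% and 84.2% of Tbp plus Tbpl1 per kilobase of exon in WT, against 83.6% and 84.1% in the libraries labelled Taf4a-/-. The annotated Tbp exon sequence is long, 13399 nt for a coding sequence of 948 nt, so this share depends on the length used. Per kilobase of coding sequence the mean share of Tbpl1 was 70.1% in WT, against 68.1% in the libraries labelled Taf4a-/-, so Tbpl1 was the more abundant of the pair on both scales. Taf7l made up 1.87% and 2.57% of Taf7 plus Taf7l in WT, against 3.00% and 3.78% in the libraries labelled Taf4a-/-, and stayed the minor form in each library. Taf9b made up 5.71% and 8.28% of Taf9 plus Taf9b in WT, against 7.06% and 7.83% in the libraries labelled Taf4a-/-, with the groups overlapping. The share of Taf9b rests on the Taf9 count, which is uncertain as said above. These shares are given as a description, and their differences between groups were not tested.

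**Figure D3:**
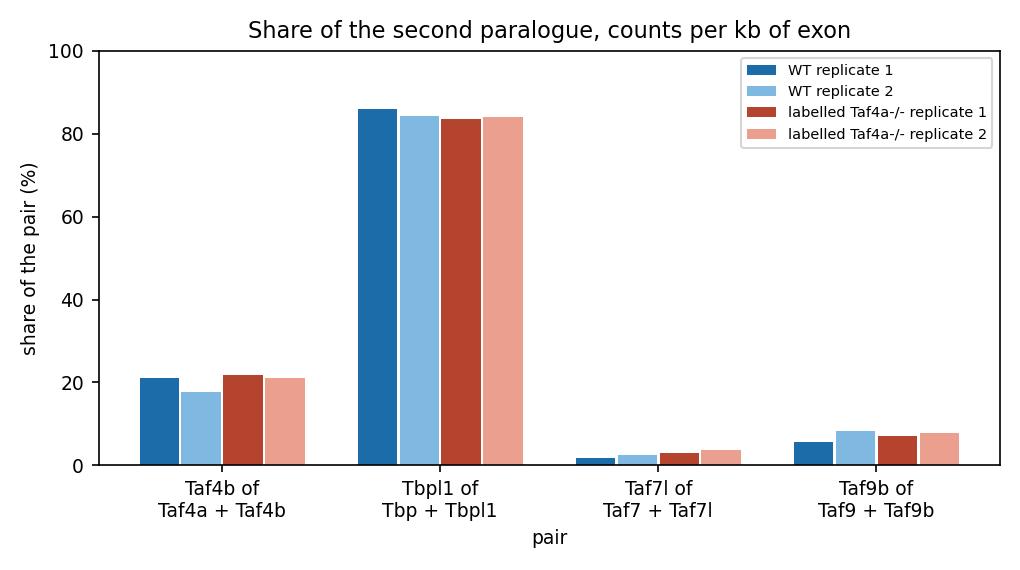
Share of the second paralogue in each pair, in percent of the summed counts per kilobase of exon, 1 bar per library. Tbpl1 takes 83.6% to 86.0% of its pair, Taf4b 17.7% to 21.8%, and Taf7l and Taf9b stay below 10%.

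Set in order by WT mean level per kilobase of exon, Taf7l stood lowest at 10.6 ± 3.97 normalized counts per kilobase (SD, n = 2), followed by Taf4b at 41.2 ± 13.8, Taf9b at 59.1 ± 14.5 and Tbp at 74.5 ± 4.26. Of these, Taf4b and Taf9b overlapped between libraries, as their ranges of 31.4 to 51.0 and 48.9 to 69.4 show. Taf12 came next at 111 ± 7.78 and Taf4a at 169 ± 32.1, and the second row named Taf9 at 372 ± 34.4. Tbpl1 at 426 ± 19.6 and Taf7 at 459 ± 69.0 overlapped each other, and Taf9 stood highest on this scale at 787 ± 26.7. The place of Taf9 is uncertain, since 65.3% of its 32-base words recur elsewhere in the genome. In the libraries labelled Taf4a-/-, Taf4b at 103 ± 0.0930 stood on this scale above Taf9b, at 71.6 ± 14.1, and close to Tbp, at 100.1 ± 1.23. The order depends on the length used. With coding length, Taf4b in those libraries stayed below Taf9b and Tbp (208 ± 0.187 against 257 ± 50.6 and 1415 ± 17.3). Per kilobase of coding sequence Tbpl1 stood highest in WT (2474 ± 114), above Taf9 (1325 ± 45.0) and Taf7 (1298 ± 195), and Tbp (1052 ± 60.1 in WT) and Taf12 (700.2 ± 49.2) both stood above Taf4a (251 ± 47.6).

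Promoters are shown for the members that were called higher and have an entry in the RefSeq promoter table, Taf4a (listed there as Taf4), Taf12 and Tbp, because these genes moved in the same direction. Each run holds 250 bases before and 50 bases after the annotated start, on the gene's strand, in GRCm38.p6 coordinates, and capitals mark matches on either strand to the 6 motifs that were searched.
Taf4a promoter, chr2:179976597-179976896, minus strand: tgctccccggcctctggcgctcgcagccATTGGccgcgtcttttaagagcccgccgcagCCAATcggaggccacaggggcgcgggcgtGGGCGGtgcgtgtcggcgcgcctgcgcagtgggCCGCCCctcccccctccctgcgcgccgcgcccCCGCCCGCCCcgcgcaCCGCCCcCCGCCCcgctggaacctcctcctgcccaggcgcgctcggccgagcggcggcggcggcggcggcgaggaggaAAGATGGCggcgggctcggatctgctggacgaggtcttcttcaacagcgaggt
Taf12 promoter, chr4:132274125-132274424, plus strand: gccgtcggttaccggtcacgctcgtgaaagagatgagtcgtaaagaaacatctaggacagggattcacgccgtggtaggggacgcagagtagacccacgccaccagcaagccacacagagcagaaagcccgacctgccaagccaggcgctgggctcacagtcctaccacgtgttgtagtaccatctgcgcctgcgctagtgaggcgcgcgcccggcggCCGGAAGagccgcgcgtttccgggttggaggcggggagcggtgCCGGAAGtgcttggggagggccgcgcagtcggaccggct
Tbp promoter, chr17:15499638-15499937, plus strand: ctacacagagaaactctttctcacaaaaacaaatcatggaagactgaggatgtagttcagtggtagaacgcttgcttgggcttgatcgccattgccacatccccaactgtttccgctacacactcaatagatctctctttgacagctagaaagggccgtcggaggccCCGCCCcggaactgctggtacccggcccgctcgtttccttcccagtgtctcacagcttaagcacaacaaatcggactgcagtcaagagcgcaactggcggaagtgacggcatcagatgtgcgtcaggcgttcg
The motifs were the TATA box TATAAA, the CCAAT box CCAAT, the GC box GGGCGG, the ETS core CCGGAAG, the NRF1 core GCATGCGC and the YY1 core AAGATGGC. The Taf4a promoter held 6 GC boxes, some of them overlapping, 2 CCAAT boxes and 1 YY1 core. The Taf12 promoter held 2 ETS cores, and the Tbp promoter 1 GC box. None of the 3 held TATAAA, which occurs in 13.6% of the 32851 promoters of the table, and no motif of the 6 was common to all 3. The share of all promoters with a match was 37.4% for the CCAAT box, 35.7% for the GC box, 8.86% for the ETS core, 2.71% for the NRF1 core and 2.75% for the YY1 core. G and C made up 77.3% of the Taf4a window, 65.3% of the Taf12 window and 53.3% of the Tbp window, against a median of 52.7% over the table.

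The 9 other TFIID subunits, which have no paralogue among the genes above, were read from the same fit. Of these, 6 were called higher and 0 lower and the median of their log2 fold changes was 0.67, against the background of 11.3% and 17.3% given above. Taf5, the WD40 scaffold of the core, had 728 and 640 normalized counts in WT, against 1242 and 1475 in the libraries labelled Taf4a-/- (log2 fold change 0.99 ± 0.15, adjusted p of 0.00762 by limma). Taf6, the partner of TAF9, rose by 0.83 on the log2 scale (adjusted p of 0.00627 by limma). Taf13, a histone-fold partner of TAF11, rose by 1.00 (adjusted p of 0.0156 by limma). In 7 of the 9 subunits, among them Taf5, Taf6 and Taf13, both libraries labelled Taf4a-/- were above both WT libraries, against 34.5% of all genes.

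Taf2, which contacts the initiator region, rose by 0.71 on the log2 scale (adjusted p of 0.00911 by limma). Taf1, the large subunit that binds acetylated histones, rose by 0.57 (adjusted p of 0.0157 by limma). Taf3, which binds trimethylated histone H3 at active promoters, rose by 0.67 (adjusted p of 0.0368 by limma). The log2 fold changes of Taf11, Taf8 and Taf10 were 0.27 (adjusted p of 0.151 by limma), 0.06 and 0.02, and none was called. Of the histone-fold partners, Taf6 was called and Taf9 was not, and Taf13 was called and Taf11 was not, whereas Taf4a, Taf4b and Taf12 were each called. Differences between partners were not tested. The count of 6 fell to 3 without the library labelled Taf4a-/- replicate 2, to 4 without replicate 1, and to 3 when limma was fitted without a variance trend. Taf1 lost its call without either library labelled Taf4a-/- (adjusted p of 0.125 and 0.102), Taf2 without replicate 2 of them (0.0674), and Taf3 without either (0.129 and 0.142) or without WT replicate 2 (0.0725).

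Paralogues of TFIID subunits that serve in SAGA and related complexes, Taf5l, Taf6l, Supt3 and Supt7l, were read from the same fit. Of these, 0 of 4 were called by limma, against 28.6% of all genes, and their median log2 fold change was 0.12. Also 0 of them passed an unadjusted p of 0.05, since the lowest was 0.320, for Supt7l. Of 16 other SAGA subunits, 1 was called higher and 0 lower, against 11.3% and 17.3% of all genes. This was Kat2a, the acetyltransferase GCN5, with 2268 and 1587 normalized counts in WT, against 3489 and 3163 in the libraries labelled Taf4a-/- (log2 fold change 0.81, adjusted p of 0.0252 by limma). Its adjusted p was 0.0823 without the library labelled Taf4a-/- replicate 1 and 0.0544 without WT replicate 2, and 0.0878 with no variance trend. Taf9, Taf10 and Taf12 serve in both complexes, and of them Taf12 was called.

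Among the partners of TBP outside TFIID, 9 of the 10 genes listed had a row, and 4 were called higher and 2 lower, against 11.3% and 17.3% of all genes. The count of 2 lower is near that share. The largest rise was that of Btaf1, the ATPase that removes TBP from DNA, with 2348 and 1963 normalized counts in WT, against 3934 and 3671 in the libraries labelled Taf4a-/- (log2 fold change 0.82, adjusted p of 0.00917 by limma). The largest fall was that of Taf1d, a subunit of the RNA polymerase I factor SL1, with 885 and 1026 normalized counts in WT, against 660 and 521 in the libraries labelled Taf4a-/- (log2 fold change -0.70, adjusted p of 0.0304 by limma). For Taf1d this p was 0.181 without the library labelled Taf4a-/- replicate 2, 0.119 without WT replicate 2 and 0.0836 with no variance trend, whereas Btaf1 kept its call without any 1 library.

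TFIIA binds TBP and TBPL1 and steadies them on promoters. Gtf2a1, its large subunit, had 1056 and 1141 normalized counts in WT, against 2948 and 3186 in the libraries labelled Taf4a-/-. In the main fit its log2 fold change of 1.48 (adjusted p of 0.00140 by limma) was larger than that of any of the 10 rows above. Under quantile normalization Taf4b stood higher, at 1.59 against 1.51, and also without WT replicate 1, at 1.71 against 1.42. Gtf2a2, the small subunit, had a log2 fold change of 0.15 (adjusted p of 0.455 by limma). Gtf2a1l, the germ cell form of the large subunit, had at most 3.92 normalized counts in any library and was not tested.

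Marker lists of other cell types were summed beside these results, since TAF4B is known from ESCs and germ cells. Of the 12 pluripotency markers 11 had a row, of which 9 were called higher and 0 lower, against 11.3% and 17.3% of all genes. These markers summed to 6099 and 3061 normalized counts in WT replicate 1 and replicate 2, against 18631 and 21268 in the libraries labelled Taf4a-/-. WT replicate 1 was the higher of the WT pair in this sum, as it was in Taf4a (889 against 678) and Taf4b (263 against 162), and the opposite held for Taf12 (425 against 470). Pou5f1, which encodes Oct4, had 1097 and 278 normalized counts in WT, against 3113 and 3325 in the libraries labelled Taf4a-/-. None of the pluripotency markers was at 0 in any group, and the part of this list in the Taf4a, Taf4b and Taf12 results was not tested.

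Of the 10 germ cell markers, 9 were tested and 8 were called higher, against 11.3% of all genes. The 10 markers summed to 169 and 155 normalized counts in WT, against 899 and 711 in the libraries labelled Taf4a-/-. Among the tested genes, Sycp1, Mael and Tdrd1 were under 10 normalized counts in both WT libraries and passed the filter through the other group. The calls of Sycp1 and Mael are part of the count of 8 and are not read here. The untested Tex101 was at 0 in both WT libraries. Oocyte markers stayed low, with sums from 28.9 to 39.8 normalized counts, and 2 of the 8 with a row, Zp3 and Gdf9, passed the filter. Each passed through the group where it is high (Zp3 at 0.877 and 3.12 in WT, against 26.4 and 22.1; Gdf9 at 25.4 and 29.1, against 6.85 and 5.53), so their calls are not read here. The 10 feeder and fibroblast markers summed to 436515 and 606033 in WT, against 53989 and 66934 in the libraries labelled Taf4a-/-. Of them 7 were called lower, against 17.3% of all genes. The 10 macrophage markers summed to 10871 and 12804 in WT, and to 187 and 229 in the libraries labelled Taf4a-/-. C1qa was at 0 in both of the latter. Markers such as C1qa passed the filter through WT, where they are high, so the calls of this list are not read here. The part of each of these lists in the results above was not tested.

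**Figure D4:**
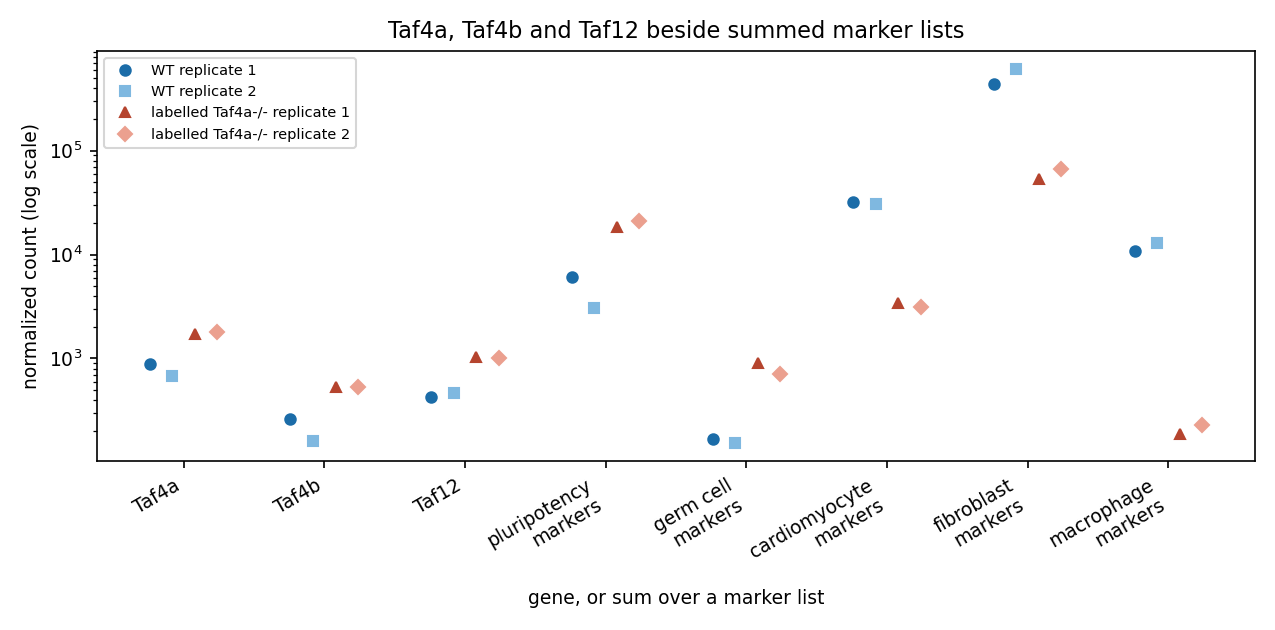
Normalized counts (log axis) of Taf4a, Taf4b and Taf12 in each library, beside the summed normalized counts of 5 marker lists. Taf4a, Taf4b, Taf12 and the pluripotency and germ cell sums are higher in both libraries labelled Taf4a-/-, and the cardiomyocyte, fibroblast and macrophage sums are lower.

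Taf7l, Taf9b and Taf1 are X-linked, and the libraries differ in their sex chromosome markers. Xist, the RNA that coats an inactive X chromosome, had 6.14 and 7.27 normalized counts in the WT pair, and in the other group 217 in replicate 1 and 6470 in replicate 2. The Y-linked gene Eif2s3y had 1688 and 0 normalized counts in WT, against 309 and 0 in the libraries labelled Taf4a-/-. Ddx3y, Kdm5d and Uty gave the same order. For Taf7l and Taf9b, the library without Y-linked counts was the higher of each pair (Taf9b: 219 over 154 in WT, 258 over 195 in the other group), and this was also the case for Taf1 in WT but not in the libraries labelled Taf4a-/-. Whether the sex chromosomes play a part in these values was not tested.

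Genes with a profile like those of Taf4a and Taf4b were ranked by the distance between log2 values centred on each gene's mean, over 13863 genes with a mean of at least 50 and over 4 libraries. Nearest to Taf4a were B130055M24Rik (distance 0.03 on the log2 scale), Acad12, Wdr90, Brca2 and Atm (0.06), against a median distance of 1.27. Wdr90, for instance, had 892 and 706 normalized counts in WT, against 1772 and 1803 in the libraries labelled Taf4a-/-. Taf4b took place 127 in this order, and Taf12 place 303. Among the nearest to Taf4b were Cad (0.10), 1700019D03Rik, 5031425E22Rik and Sirt1 (0.11), with Taf4a at place 56 and Taf12 at place 448. With 4 libraries such distances follow the difference between groups and the gap between the WT libraries, and they are given as a description.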

How the data were processed

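The authors mapped reads to mm9 with TopHat 1.3.3 after base calling with CASAVA 1.8, counted them per gene with HTSeq 0.5.3p1, per the labels, and deposited normalized counts, which per the study's methods the authors scaled with DESeq2. Dividing each library's values by its smallest step (0.877 to 1.11) gave whole reads for 100% of values within 0.01 reads. The kit did not mark strand.

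The members and gene lists were chosen with earlier results of these data known. Named were the 10 members, all other TFIID subunits, the largest called rise and fall in each further list, the sex chromosome markers, at most 3 genes of each marker list and the 5 nearest profiles, of which 1 is not reported here. Tex101, Sycp1, Mael, Tdrd1, C1qa, Zp3 and Gdf9, and the uncalled Supt7l and Gtf2a2, were named after their values were seen.

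Genes whose mean reached 10 normalized counts were tested by limma 3.58.1 in R 4.3.3 (lmFit, then eBayes with its trend option) on log2(normalized count + 1), which understates the fold change of low genes. Benjamini-Hochberg adjustment ran over all of them, at a threshold of 0.05. Fold changes are on that scale. Lengths and coordinates came from GENCODE M1 on NCBIM37, the build of the files, in which all 24637 identifiers were found. The test was tried on simulated data first. The labels do not say that a replicate number pairs libraries. Alternatives were other pseudocounts, filters, scalings and fits, a replicate block, and leaving out each library.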

Additional observations from a re-analysis of the deposited data

How the results depend on the processing

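Taf4a, Taf4b and Taf12 kept their direction and their side of the threshold in each of the 14 alternatives run. The log2 fold change lay between 0.98 and 1.37 for Taf4a and between 1.12 and 1.32 for Taf12. Tbp lost its call in 7 of the 14, among them no filter on low values (adjusted p of 0.0613 by limma) and no variance trend (0.110). The members called higher numbered 3 or 4 and those called lower 0 throughout. The other TFIID subunits called higher numbered 3 with no variance trend and from 3 to 6 when 1 library was left out, and the cause was not tested. In those fits the lone library of a group was assumed to vary like the pair. Taf3 lost its call in 4 alternatives, Taf1 in 3, and Taf2 and Taf13 in 1 each.

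Values near 0 changed sign: the second row named Taf9 came to 0.011 under quantile normalization, and over the fits without 1 library Taf7 ran from -0.053 to 0.25, Taf8 from -0.14 to 0.26 and Taf10 from -0.046 to 0.083, none of them called. The replicate block left 3 members and 6 other TFIID subunits called higher, 0 lower, and changed no other call than that of Tbp. Same-numbered libraries shared little of their deviation (correlation 0.01, 2 pairs), although in both groups replicate 1 had Y-linked counts and replicate 2 had none.

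Mean shares without division by length were 21.1% (WT) and 23.3% (libraries labelled Taf4a-/-) for Taf4b, 58.3% and 55.9% for Tbpl1, 1.73% and 2.66% for Taf7l, and 15.1% and 16.0% for Taf9b. Per kilobase of coding sequence, a scale added after seeing the data, they were 24.5% and 27.0%, 70.1% and 68.1%, 1.26% and 1.94%, and 13.8% and 14.6% in the same order. These follow from the lengths. The planned edgeR and DESeq2 fits were not run, and limma voom on the recovered reads was run in their place. With the filter at a mean of 50, Taf7l was not tested.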
